A study of Solanum lycopersicum with 18 samples.

Results

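In fruits of the tomato line TF18, made to suppress FUL1 and FUL2, 66 genes stood above both rin mutant and wild-type fruit at each of 2 fruit ages, 45 and 35 DAP (the labels' unit of age). They were chosen on measured values. On group means of RPKM (reads scaled by gene length and library size) plus 1, TF18 had to be at least 3 times rin and at least 3 times the wild type at 45 DAP and again at 35 DAP, with a TF18 mean of at least 5 RPKM at 45 DAP. The condition held for 68 of the 35802 gene identifiers in the table, and 2 identifiers of these (Solyc09g008670 and Solyc07g007260) were left out by the rule. The differences between TF18 and the other genotypes are therefore a property of the choice and are described below without a test.

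The libraries form 6 groups of 3. TF18-Pink and TF18-Green are fruits of transgenic line TF18, with FUL1 and FUL2 suppressed in the cultivar Ailsa Craig, at 45 and 35 DAP. The groups rin-Pink and rin-Green are the rin mutant (LA3754, in an Ailsa Craig background) at the same ages. AC-Pink and AC-Green are wild-type Ailsa Craig. Pink and Green are the labels' names for the ages in every genotype, and pink or green fruit below means that age, not a colour. The labels name no applied agent, all groups share the Ailsa Craig background, and plants grew in a glasshouse. TF18 is a single transgenic line, and the promoter of its construct is not given in the sources used here. RNA came from sliced, frozen fruits, so fewer cells of a type and less RNA per cell cannot be told apart in these values. Whether the 3 libraries of each group stem from different plants is not stated in the labels, so a p-value here reflects the spread of these libraries alone, and that spread may be technical.

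The MADS-box transcription factor RIN forms DNA-binding complexes with its relatives FUL1 and FUL2, and these complexes switch on many genes of ripening in tomato fruit. Fruit of the rin mutant stays firm and does not turn red, and fruits with little FUL1 and FUL2 also ripen incompletely. Ripening brings a large turnover of the fruit's RNA, in which genes of green, photosynthetic tissue decline while genes of colour, softening and aroma rise. Gene names are absent from the deposited table, and a search of RefSeq's genes for assembly SLM_r2.1 found 0 of its 35802 identifiers. The 66 genes are therefore given by identifier, with no function, and neither the suppression of FUL1 and FUL2 nor tissue markers were checked here.

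Read totals ran from 5740900 to 17334324 per library, and all 66 genes passed the filter of the tests (at least 1 RPKM in at least 3 libraries). Of these, 8 passed through TF18 alone and had fewer than 3 of the 12 rin and wild-type libraries at 1 RPKM. Pooled over the 66 genes and the 3 libraries of a group, the reads numbered 185917 in TF18-Pink, 17380 in rin-Pink and 4017 in AC-Pink. At 35 DAP they numbered 213405 in TF18-Green, 54609 in rin-Green and 53047 in AC-Green. Floors given below from read counts cover counting error only, as the reads carry no molecular identifiers.

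Levels of the 66 genes ranged widely in TF18 and, by median, were lowest in AC-Pink. The median over the genes of the group mean was 20.8 RPKM in TF18-Pink, 2.26 in rin-Pink and 0.641 in AC-Pink. At 35 DAP the same median was 32.1 RPKM in TF18-Green, 4.14 in rin-Green and 3.79 in AC-Green. In TF18-Pink the means ran from 5.01 to 812 RPKM, with 32 genes under 20 RPKM and 14 over 100. A mean under 1 RPKM was found for 22 of the genes in rin-Pink and 35 in AC-Pink, and for 8 in rin-Green and 15 in AC-Green. The wild type thus held the lowest median at both ages, and on these RPKM values its distance from TF18 was larger at 45 DAP. TMM-type scaling, an unweighted trimmed mean on RPKM, divides each library by a factor. That factor was 0.564 to 0.738 in AC-Pink and 1.22 to 1.26 in TF18-Pink. At 35 DAP it was 1.03 to 1.06 in AC-Green and 1.08 to 1.20 in TF18-Green. Such scaling would narrow the distance more at 45 DAP than at 35 DAP. The RPKM levels and ratios given below are without it.

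**Figure D1:**
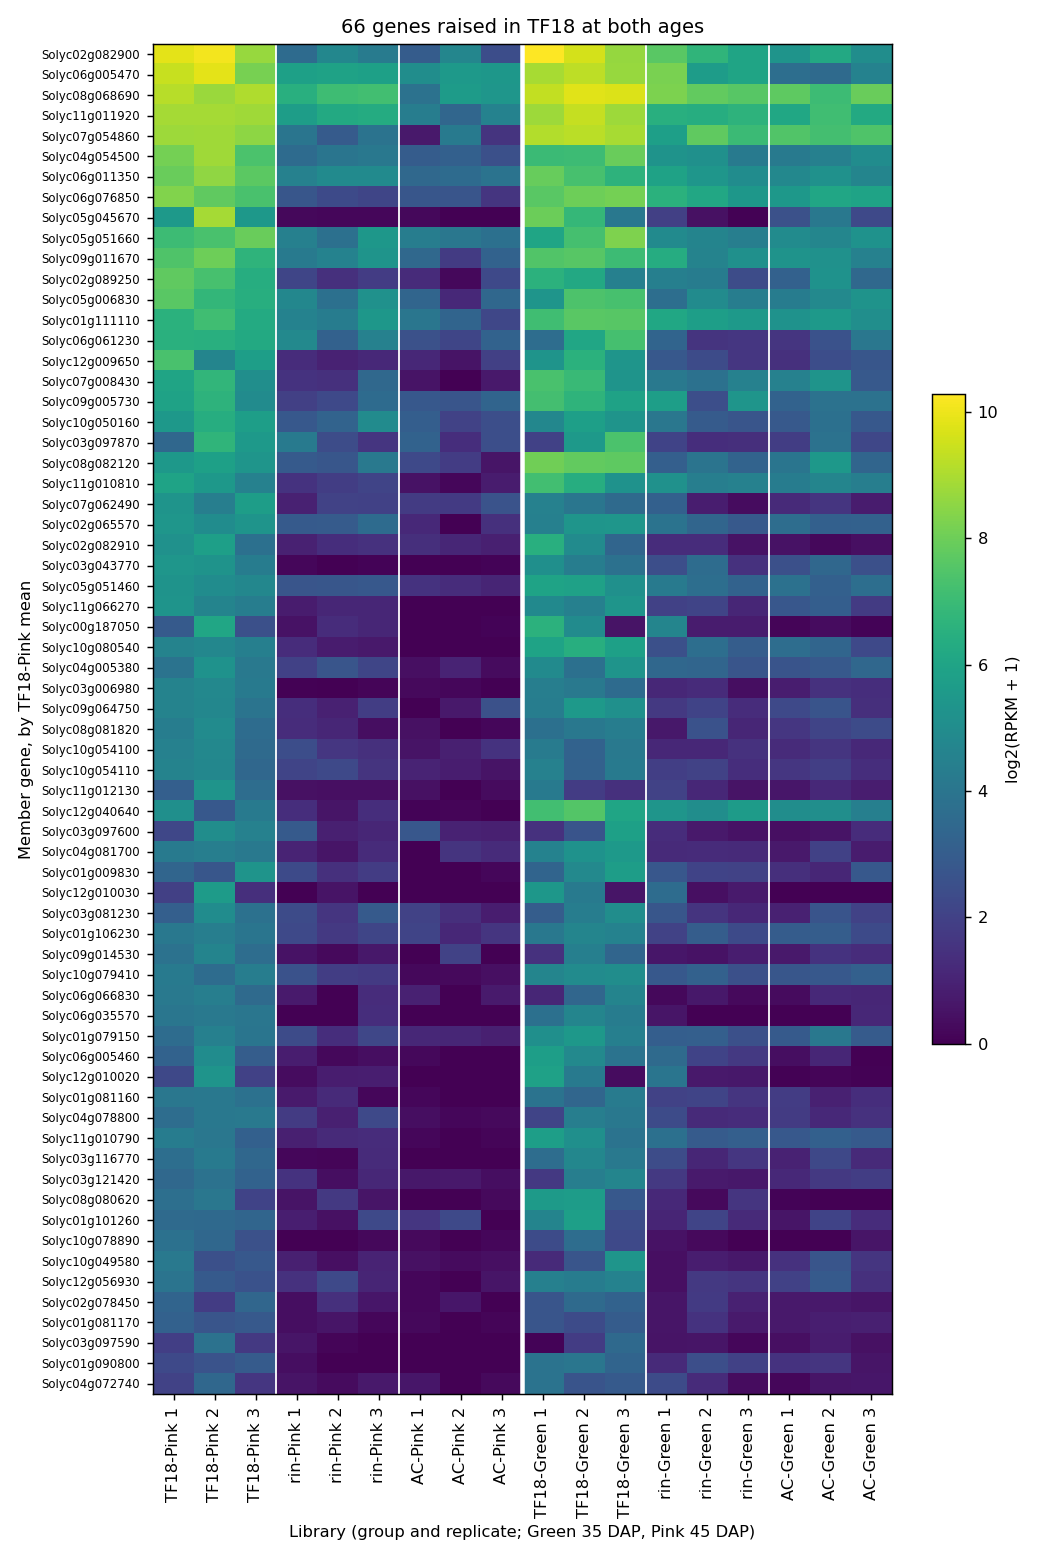
Heat map of the 66 genes raised in TF18 (rows, ordered by their TF18-Pink mean) in the 18 libraries (columns, 3 per group), coloured by log2(RPKM + 1). The TF18 columns are the bright ones in each age, and within TF18 several rows are bright in a single library.

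Measured on means plus 1, the median ratio of TF18 to the wild type was 14.3 at 45 DAP (range 3.704 to 181) and 5.54 at 35 DAP (range 3.08 to 37.3). Against rin it was 7.55 at 45 DAP (range 3.01 to 166) and 5.01 at 35 DAP (range 3.03 to 61.99). The smallest of the 4 ratios, which decides whether a gene is kept and is called its limiting ratio here, was at 35 DAP for most genes. It was TF18 over rin at 35 DAP for 31 genes and TF18 over the wild type at 35 DAP for 20. At 45 DAP the limiting ratio was that over rin for 13 genes and that over the wild type for 2. The green stage was also the narrower gate over the whole table. There, 215 genes met the pair of conditions, against 1082 at 45 DAP. Neither count was repeated under TMM-type scaling.

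The 8 genes with the largest limiting ratio were low outside TF18, with no rin or wild-type group mean above 8.27 RPKM (Solyc05g045670 in AC-Green). Solyc02g082910 had the largest, 14.7. At 45 DAP it had 36.1, 54.8 and 12.8 RPKM in TF18, 0.928, 1.57 and 1.75 in rin and 1.63, 1.13 and 0.896 in AC. At 35 DAP the values were 87.8, 30.1 and 9.11 RPKM in TF18, 1.47, 1.499 and 0.421 in rin and 0.408, 0.175 and 0.346 in AC. All 3 TF18 libraries lay above the other 6 at each age, and TF18 replicate 3 was the lowest of its group both times.

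Solyc05g045670 had the largest ratios at 45 DAP, 166 over rin and 181 over the wild type. Its values there were 46.7, 479 and 43.1 RPKM in TF18, 0.157, 0.143 and 0.141 in rin and 0.159, 0 and 0 in AC. In green fruit it had 253, 113 and 16.4 RPKM in TF18, 2.81, 0.3604 and 0.0494 in rin and 4.78, 16.2 and 3.79 in AC. The TF18 mean rested largely on replicate 2 at 45 DAP, which held 84.2% of the summed TF18 RPKM of that age, and on replicate 1 at 35 DAP, which held 66.1%. The lowest TF18 library was nonetheless 272 times the highest rin or wild-type library at 45 DAP, while at 35 DAP it was 1.01 times wild-type replicate 2. The 45 DAP values rest on 7 reads in rin-Pink and 2 in AC-Pink, so the size of these ratios is imprecise. With group means of 0.147 RPKM in rin-Pink and 0.0529 in AC-Pink, the ratios 166 and 181 depend largely on the added 1 RPKM.

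Solyc12g009650 had a limiting ratio of 11.5, with 161, 24.8 and 53.6 RPKM in TF18, 1.501, 0.973 and 1.28 in rin and 1.199, 0.437 and 2.86 in AC at 45 DAP. Its values at 35 DAP were 39.4, 93.9 and 39.8 RPKM in TF18, 6.17, 4.12 and 2.09 in rin and 1.66, 4.397 and 5.64 in AC. Here the highest TF18-Pink library was replicate 1, and no library of TF18 overlapped those of rin or the wild type. Solyc06g035570, with a limiting ratio of 11.1, was even among the TF18-Pink libraries, at 15.5, 16.8 and 15.4 RPKM, against 0, 0 and 1.54 in rin and 0 in every AC-Pink library. At 35 DAP it had 12.8, 24.3 and 19.1 RPKM in TF18, 0.489, 0 and 0 in rin and 0, 0 and 1.19 in AC. Its coding length is only 165 bases, and the TF18-Pink mean rests on 93 reads over 3 libraries. A count of 0 reads in AC-Pink allows a level of up to 0.755 RPKM (3 reads over the group), so TF18-Pink was at least 20.9-fold higher.

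Solyc04g081700 and Solyc09g064750 are short as well, with coding lengths of 180 and 288 bases. Solyc04g081700 had 17.6, 20.3 and 17.02 RPKM in TF18, 1.05, 0.479 and 1.41 in rin and 0, 1.94 and 1.41 in AC at 45 DAP. In green fruit its values were 22.8, 37.1 and 45.1 RPKM in TF18, 1.34, 1.38 and 1.32 in rin and 0.641, 2.97 and 0.725 in AC, so every TF18 library lay above every other library of its age. For Solyc09g064750 the pink fruits gave 23.5, 26.1 and 14.5 RPKM in TF18, 1.53, 0.898 and 2.65 in rin and 0, 0.605 and 4.84 in AC. Green fruits gave 19.3, 45.1 and 34.3 RPKM in TF18, 2.24, 3.23 and 1.45 in rin and 3.81, 5.37 and 1.59 in AC. TF18 did not overlap the others in this gene, although AC-Pink replicate 3 stood above the rest of the wild type of that age.

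Solyc10g080540 was even among the 3 TF18-Pink libraries. Its values were 23.5, 26.2 and 20.4 RPKM in TF18-Pink and 1.48, 0.729 and 0.638 in rin-Pink, and no read was counted in AC-Pink. The floor of 3 reads makes TF18-Pink at least 197-fold higher than AC-Pink. At 35 DAP it had 60.8, 86.2 and 55.9 RPKM in TF18, 4.62, 12.01 and 7.21 in rin and 11.8, 9.16 and 3.799 in AC, where rin and the wild type overlapped and TF18 was above its own values at 45 DAP without overlap. Solyc03g006980 was also low outside TF18, with 23.1, 27.1 and 17.2 RPKM in TF18, 0.0432, 0 and 0.116 in rin and 0.197, 0.119 and 0 in AC at 45 DAP, and with 20.2, 16.7 and 10.9 RPKM in TF18, 1.22, 1.41 and 0.286 in rin and 0.752, 1.75 and 1.57 in AC at 35 DAP. Altogether 8 of the 66 genes had 0 reads in AC-Pink and 1 had 0 in AC-Green, whereas none had 0 reads in a TF18 or a rin group. Against the floor of 3 reads over the AC-Pink group, the largest bounds were in Solyc11g066270, at least 199-fold higher in TF18-Pink, and Solyc10g080540.

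**Figure D2:**
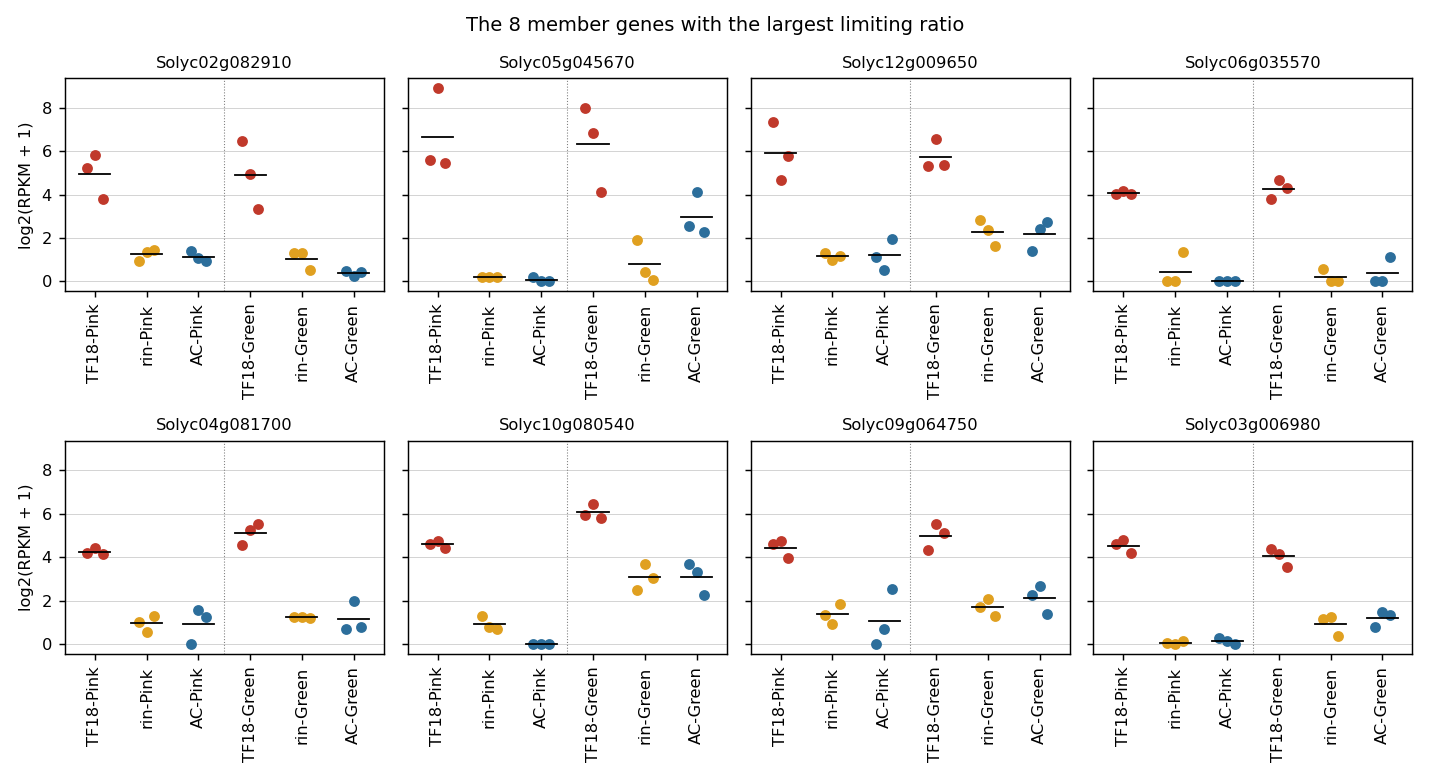
Levels of the 8 genes with the largest limiting ratio, as log2(RPKM + 1) per library (points, replicates 1 to 3 from left to right) with the mean of the 3 log2 values (line), for TF18 (red), rin (yellow) and the wild type AC (blue), 45 DAP left of the dotted line and 35 DAP right of it. The red points lie above the yellow and blue points of the same age in all 8 panels.

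The 8 genes most abundant in TF18-Pink were a different set. Solyc02g082900 was highest in TF18-Pink, at 812 RPKM ± 358 (SD, n = 3), and its identifier neighbours Solyc02g082910 of the preceding set. Its values at 45 DAP were 917, 1105 and 412 RPKM in TF18, 11.2, 26.4 and 18.3 in rin and 6.94, 25.1 and 4.43 in AC. At 35 DAP they were 1239, 793 and 396 RPKM in TF18, 199.7, 104 and 63.2 in rin and 39.2, 71.7 and 31.8 in AC. TF18 did not overlap the others at either age, and rin-Green lay above AC-Green except for rin replicate 3, which was below wild-type replicate 2.

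Solyc06g005470 was second, with 679, 929.6 and 283 RPKM in TF18, 56.7, 59.4 and 55.7 in rin and 31.5, 45.2 and 42.3 in AC at 45 DAP. Green fruits had 485, 607 and 414 RPKM in TF18, 296, 50.4 and 63.7 in rin and 11.97, 10.8 and 22.5 in AC. A single rin library, replicate 1 of 35 DAP, came near the TF18 range, and the ratio of TF18 to rin at 35 DAP was the smallest of its 4 ratios, 3.65. This gene has a coding length of 270 bases.

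Solyc08g068690, Solyc11g011920 and Solyc07g054860 were more even among the TF18 libraries. Solyc08g068690 had 571, 429 and 522 RPKM in TF18, 88.9, 136 and 142 in rin and 13.5, 48.7 and 40.7 in AC at 45 DAP, and 652, 889 and 860.2 RPKM in TF18, 306, 225 and 195 in rin and 209, 133 and 242 in AC at 35 DAP. For Solyc11g011920 the values were 468, 469.9 and 448 RPKM in TF18, 51.4, 73.6 and 78.2 in rin and 19.6, 9.56 and 22.6 in AC in pink fruit, and 441, 671 and 441 RPKM in TF18, 89.2, 83.9 and 99.6 in rin and 68.8, 138 and 75.7 in AC in green fruit. Solyc07g054860 had 440.0, 448 and 366 RPKM in TF18, 15.02, 6.72 and 14.01 in rin and 0.632, 17.7 and 1.92 in AC at 45 DAP, and 542, 591 and 485 RPKM in TF18, 54.2, 215 and 126 in rin and 178, 146 and 173 in AC at 35 DAP. TF18 stood above the other genotypes without overlap in all 3 genes. The wild-type mean of Solyc07g054860 was 6.75 RPKM in AC-Pink and 166 RPKM in AC-Green, a larger ratio between the ages than in the other 2 genes.

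The other 3 of the 8 were Solyc04g054500, Solyc06g011350 and Solyc06g076850. Solyc04g054500 averaged 298 RPKM ± 141 in TF18-Pink, 14.02 RPKM ± 2.58 in rin-Pink and 6.51 RPKM ± 1.67 in AC-Pink (SD, n = 3 each). Solyc06g011350 averaged 275 RPKM ± 95.8, against 26.9 RPKM ± 4.13 in rin-Pink and 11.8 RPKM ± 2.08 in AC-Pink (SD, n = 3 each). Solyc06g076850 averaged 232 RPKM ± 79.9 in TF18-Pink, and rin-Pink (4.35 RPKM ± 1.24) and AC-Pink (4.41 RPKM ± 2.103) differed by less than their SD (n = 3 each). In green fruit the means of these 3 genes were 166, 164 and 244 RPKM in TF18, in the same order of genes, 29.9, 43.6 and 69.1 RPKM in rin-Green, and 23.3, 29.4 and 56.8 RPKM in AC-Green.

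Summed over the 66 genes, the share of all RPKM in a library was 0.556% ± 0.143 in TF18-Pink, 0.0482% ± 0.00567 in rin-Pink and 0.01803% ± 0.00109 in AC-Pink (SD, n = 3 each). At 35 DAP it was 0.604% ± 0.0548 in TF18-Green, 0.116% ± 0.0331 in rin-Green and 0.0959% ± 0.00892 in AC-Green (SD, n = 3 each). The TF18-Pink libraries held 0.578%, 0.686% and 0.403%, the TF18-Green libraries 0.629%, 0.642% and 0.541%, so the share in TF18 overlapped between the ages. The 5 most abundant of the genes in TF18-Pink made up 48.5% of the sum there.

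For a further 21 genes only ranges are given. Their group means ran over 5.01 to 178 RPKM in TF18-Pink, 0.0557 to 27.9 in rin-Pink and 0 to 16.1 in AC-Pink. At 35 DAP the means covered 6.504 to 178 RPKM in TF18-Green, 0.193 to 56.2 in rin-Green and 0.0282 to 38.4 in AC-Green. Solyc05g051660, Solyc02g089250 and Solyc01g111110 were the highest of them in TF18-Pink, at 178, 151 and 103 RPKM, followed by Solyc06g061230, Solyc10g050160, Solyc03g043770, Solyc11g066270 and Solyc08g081820, all above 20 RPKM. Under 20 RPKM were Solyc11g012130, Solyc01g009830, Solyc03g081230, Solyc09g014530, Solyc01g079150, Solyc04g078800, Solyc03g116770, Solyc08g080620, Solyc01g101260, Solyc10g078890, Solyc02g078450, Solyc01g090800 and Solyc04g072740. Solyc08g080620 was close to 0 in the wild type at both ages, with 12.4, 15.9 and 3.18 RPKM in TF18-Pink against 0, 0 and 0.186 in AC-Pink, and 48.04, 50.5 and 6.16 RPKM in TF18-Green against 0.0847, 0 and 0 in AC-Green.

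All 3 TF18 libraries lay above all 6 rin and wild-type libraries in 64 of the 66 genes at 45 DAP, where 27% of the 20658 genes tested did, and in 53 at 35 DAP, where 16.6% did. These counts follow from the choice of the genes, and the shares over all genes tested are on RPKM without TMM-type scaling. Both ages were free of overlap in 52 genes. The remaining 14 overlapped at 35 DAP alone (12 genes), at 45 DAP alone (1 gene, Solyc03g097600) or at both ages (1 gene, Solyc03g097870). In each of the 13 that overlapped at 35 DAP, the lowest TF18 library was replicate 1 or replicate 3. Replicate 2 was seldom the lowest in any case. Over all 66 genes the lowest TF18-Green library was replicate 1 in 28, replicate 2 in 8 and replicate 3 in 30.

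The TF18 libraries differed among themselves more for these genes than for the genes tested at large. The ratio of the highest to the lowest TF18 library had a median of 2.44 over the 66 genes at 45 DAP and 2.51 at 35 DAP. Over the 14985 tested genes with a TF18-Pink mean of at least 5 RPKM it was 1.35 at 45 DAP and 1.36 at 35 DAP. The ratio was above 5 in 12 of the 66 genes at 45 DAP and in 18 at 35 DAP, and under 2 in 29 at 45 DAP and 24 at 35 DAP. A choice on group means takes in genes that 1 high library carries, so this spread is described without a test.

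**Figure D3:**
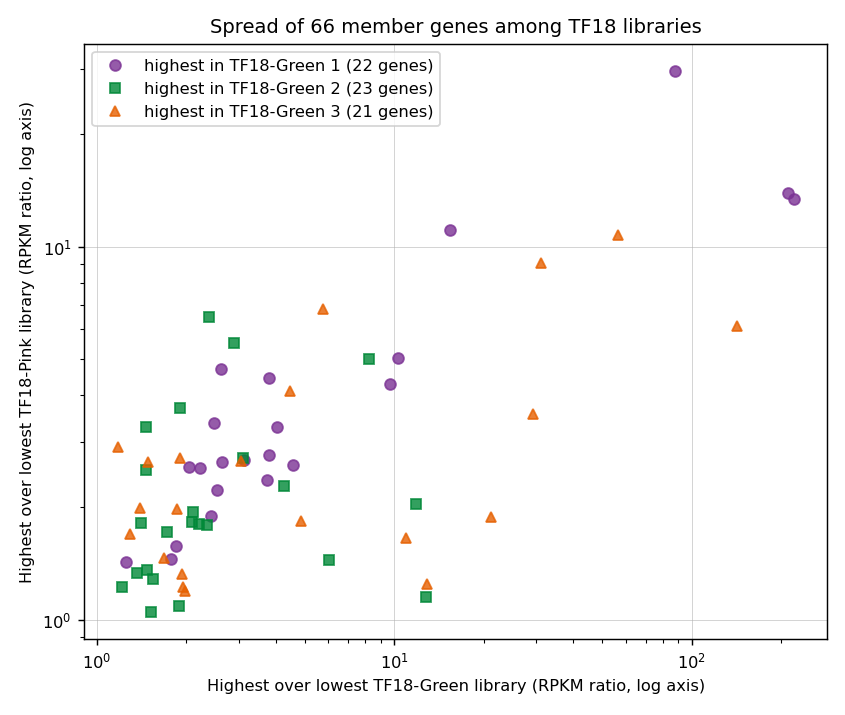
Ratio of the highest to the lowest TF18 library for each of the 66 genes, at 35 DAP (x axis) and at 45 DAP (y axis), both as RPKM ratios on log axes, with colour and shape giving the TF18-Green replicate in which the gene was highest. The medians are 2.44 at 45 DAP and 2.51 at 35 DAP, and genes highest in TF18-Green 1 (purple) or 3 (orange) include the widest spreads, up to 219.9 at 35 DAP.

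TF18-Pink replicate 2 was the highest library of its group for 41 of the 66 genes, replicate 1 for 18 and replicate 3 for 7. Over all genes tested these libraries were highest for 35.6%, 40.3% and 24.1%. Replicate 3 was the lowest for 46 of the 66, a count for which the share over all genes tested was not computed. In TF18-Green the highest library was spread over the replicates, with 22 genes in replicate 1, 23 in replicate 2 and 21 in replicate 3, against 25.4%, 27.6% and 46.9% of all genes tested. Of the 22 genes highest in TF18-Green replicate 1, 16 were highest in TF18-Pink replicate 2. So were 14 of the 23 highest in TF18-Green replicate 2 and 11 of the 21 highest in TF18-Green replicate 3. Shares over all genes tested were not computed for these combinations, so they are not read as particular to the 66.

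A first set of genes with a wide spread was high in TF18-Green replicate 1 and TF18-Pink replicate 2. Solyc12g010020 had 3.64, 39.4 and 2.94 RPKM in TF18, 0.267, 0.783 and 0.822 in rin and 0, 0 and 0 in AC at 45 DAP. In green fruit it had 58.1, 17.9 and 0.264 RPKM in TF18, 14.8, 0.639 and 0.576 in rin and 0.0349, 0.108 and 0.0395 in AC. Its identifier neighbour Solyc12g010030, with a coding length of 183 bases, had 2.88, 48.3 and 1.63 RPKM in TF18-Pink, 0, 0.471 and 0 in rin-Pink and 0 reads in AC-Pink. In green fruit its TF18 values were 41.9, 17.3 and 0.477 RPKM, with 11.5, 0.339 and 0.651 in rin-Green and 0 in every AC-Green library. Solyc00g187050 had the same order of libraries, 6.56, 65.97 and 4.75 RPKM in TF18, 0.413, 1.47 and 1.17 in rin and 0, 0 and 0.08302 in AC at 45 DAP, and 96, 29.9 and 0.458 RPKM in TF18, 24.2, 0.732 and 0.702 in rin and 0.113, 0.273 and 0.0855 in AC at 35 DAP. In these 3 genes a single rin library, replicate 1 of 35 DAP, stood above the rest of rin, and TF18-Green replicate 3 was below it.

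The high rin-Green replicate 1 was not limited to them. It exceeded 3 times the higher of the other 2 rin-Green libraries in 10 of the 66 genes. The share of all genes tested that did so was not computed, so the count is not read as particular to the 66. In Solyc06g035570, among the 10, rin-Green replicate 1 rested on 1 read. Of the 10, 8 were highest in TF18-Pink replicate 2 and 6 in TF18-Green replicate 1, against 41 and 22 of the 66. The genes include Solyc06g005460 and Solyc06g005470, and Solyc07g062490, whose rin-Green values were 7.94, 0.764 and 0.266 RPKM against 1.36, 1.996 and 0.7298 in AC-Green. Over the 66 genes rin-Green replicate 1 was the highest of its group in 36, against 37.3% of all genes tested. Without it the rule kept 81 genes, of which 64 were among the 66. What sets these libraries apart was not tested.

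A second set ran the other way in green fruit, lowest in TF18-Green replicate 1 and mostly highest in replicate 3. Solyc03g097870 had 9.75, 105 and 46.6 RPKM in TF18, 18.01, 4.203 and 1.97 in rin and 8.37, 1.54 and 4.49 in AC at 45 DAP. At 35 DAP it had 2.93, 44.4 and 165 RPKM in TF18, 3.22, 1.51 and 1.58 in rin and 2.68, 13.5 and 3.54 in AC. TF18 replicate 1 lay within the range of rin and the wild type at both ages, and rin-Pink replicate 1 was above it. Solyc03g097600 had 3.55, 32.1 and 21.97 RPKM in TF18, 6.51, 0.871 and 1.14 in rin and 5.91, 0.977 and 0.854 in AC in pink fruit, and 1.78, 5.32 and 55.6 RPKM in TF18, 1.45, 0.627 and 0.401 in rin and 0.324, 0.467 and 1.46 in AC in green fruit. TF18-Pink replicate 1 of this gene was again below rin-Pink replicate 1 and AC-Pink replicate 1.

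Solyc03g097590, next to it in the identifier order, had 2.77, 13.8 and 2.25 RPKM in TF18, 0.492, 0.0962 and 0 in rin and 0, 0 and 0 in AC at 45 DAP, and 0.0737, 2.57 and 10.4 RPKM in TF18, 0.4496, 0.485 and 0.133 in rin and 0.322, 0.729 and 0.364 in AC at 35 DAP. Solyc10g049580 had 16.7, 4.702 and 6.15 RPKM in TF18-Pink, against 0.865, 0.355 and 1.05 in rin-Pink and 0.394, 0.239 and 0.348 in AC-Pink. Its green TF18 libraries were in another order, at 1.36, 5.497 and 39.9 RPKM, against 0.332, 0.767 and 0.572 in rin-Green and 1.74, 5.63 and 1.97 in AC-Green, where wild-type replicate 2 was above TF18 replicates 1 and 2. Solyc06g066830 had 16.9, 20.3 and 10.8 RPKM in TF18-Pink but 1.12, 9.41 and 23.6 in TF18-Green, where rin had 0.171, 0.593 and 0.1896 and the wild type 0.245, 1.26 and 1.18 RPKM. Solyc03g121420 had 10.03, 13.8 and 8.33 RPKM in TF18-Pink and 2.24, 20.02 and 24.6 in TF18-Green, where rin had 2.25, 0.677 and 0.577 and the wild type 1.26, 2.23 and 2.69 RPKM. TF18-Green replicate 1 lay within the range of the wild type in both genes. It was above every rin-Green library in Solyc06g066830 and just below rin-Green replicate 1 in Solyc03g121420.

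At the other end, 5 genes were the most even among TF18 libraries, judged by the largest share that any 1 library held. They were Solyc07g054860, Solyc08g068690, Solyc01g106230, Solyc02g065570 and Solyc05g051460. Solyc01g106230 had 16.5, 20.1 and 14.8 RPKM in TF18, 3.87, 2.22 and 3.44 in rin and 3.31, 1.21 and 2.01 in AC at 45 DAP, and 16.5, 24.3 and 22.8 RPKM in TF18, 3.11, 7.25 and 3.89 in rin and 6.96, 7.06 and 3.94 in AC at 35 DAP. Solyc05g051460 had 37.5, 30.8 and 25.8 RPKM in TF18, 5.62, 5.77 and 6.04 in rin and 1.83, 1.48 and 1.08 in AC at 45 DAP, and 61.6, 57.9 and 34.7 RPKM in TF18, 17.98, 12.2 and 8.28 in rin and 13.3, 7.96 and 12.1 in AC at 35 DAP. Solyc02g065570, with a coding length of 153 bases the shortest of the 66, had 41.3, 31.1 and 38.6 RPKM in TF18, 6.59, 6.76 and 11.1 in rin and 1.25, 0 and 1.66 in AC at 45 DAP, and 21.2, 40.5 and 41.1 RPKM in TF18, 14.2, 9.33 and 6.23 in rin and 11.7, 7.77 and 8.103 in AC at 35 DAP. TF18 lay above rin and the wild type without overlap at both ages in these 3 genes.

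The rule did not use position. The Solyc identifiers carry a chromosome number and a running number, and 7 pairs of the 66 genes lay within 5 identifiers of each other, 6 of them directly adjacent in the table. The share of other tested genes with such a neighbour is not given here, so the count is not read as particular to the 66. The pairs were Solyc01g081160 with Solyc01g081170, Solyc02g082900 with Solyc02g082910, Solyc03g097590 with Solyc03g097600, Solyc06g005460 with Solyc06g005470, Solyc10g054100 with Solyc10g054110, Solyc11g010790 with Solyc11g010810, and Solyc12g010020 with Solyc12g010030. Genome coordinates are not used here, so the distance in bases is not given.

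In 4 of the 7 pairs both genes had the same order of TF18 libraries at both ages. How often other neighbouring genes share that order was not computed. Solyc10g054100 had 22.1, 27.1 and 10.6 RPKM in TF18-Pink and 18.5, 8.33 and 16.7 in TF18-Green. Its neighbour Solyc10g054110 had 23.4, 25.8 and 9.74 and 21.6, 8.18 and 17.97 RPKM, close to it library by library. Outside TF18 their means were 2.702 and 3.001 RPKM in rin-Pink and 1.06 and 0.746 RPKM in AC-Pink. The coding lengths of this pair, 204 and 1128 bases, are far apart.

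Solyc11g010790 and Solyc11g010810 have the same coding length, 1413 bases. Solyc11g010810 had 60.8, 43.4 and 22 RPKM in TF18, 1.83, 2.62 and 3.36 in rin and 0.406, 0.123 and 0.718 in AC at 45 DAP, and 141, 84.6 and 37.2 RPKM in TF18, 35.7, 20.2 and 21.9 in rin and 18.8, 24.5 and 19.9 in AC at 35 DAP. Solyc11g010790 had 18.7, 15.7 and 7.93 RPKM in TF18, 0.848, 1.34 and 1.502 in rin and 0.135, 0 and 0.0897 in AC at 45 DAP, and 52.6, 33.3 and 14.03 RPKM in TF18, 12.96, 6.64 and 7.67 in rin and 6.12, 7.998 and 6.56 in AC at 35 DAP. Replicates ran in the same order in TF18 at both ages, with the lower level in Solyc11g010790 each time. The gene between them, Solyc11g010800, is not among the 66, with a limiting ratio of 2.88. It had 15.3, 12 and 4.17 RPKM in TF18-Pink, 0.391, 0.802 and 0.526 in rin-Pink and 0, 0 and 0.983 in AC-Pink. How reads that fit more than 1 gene were counted is not given in the sources used here, and whether similar neighbours share reads was not tested.

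Solyc01g081160 and Solyc01g081170 were low in pink wild-type fruit. Their TF18-Pink values were 15.8, 16.3 and 13.3 RPKM and 8.22, 5.603 and 6.21 RPKM, against AC-Pink values of 0.148, 0 and 0 RPKM and 0.152, 0 and 0.1004 RPKM. Solyc06g005460 was at 8.32, 31.3 and 7.06 RPKM in TF18-Pink, 0.787, 0.154 and 0.303 in rin-Pink and 0.171, 0 and 0 in AC-Pink, far below its neighbour Solyc06g005470 in every group. At 35 DAP it had 53.7, 27.3 and 14.2 RPKM in TF18, 10.8, 3.21 and 2.23 in rin and 0.308, 1.17 and 0 in AC, with rin-Green replicate 1 again the highest of rin.

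By chromosome number the 66 genes were spread over all 12 chromosomes, with 1 gene numbered 00. Chromosomes 1 and 3 held 8 genes each, and 6 and 10 held 7 each. Chromosome 10 had 10.6% of the 66 genes and 6.59% of the genes tested, the largest such difference, and chromosome 2 had 7.58% and 10.7%. The median coding length was 896 bases over the 66 genes (range 153 to 2481) and 1071 bases over tested genes with a TF18-Pink mean of at least 5 RPKM.

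At the edge of the rule, the 3 genes just inside were Solyc12g056930, Solyc04g005380 and Solyc09g005730, with limiting ratios of 3.01, 3.03 and 3.07. Just outside were Solyc03g115950, Solyc08g082160 and Solyc03g112620, with 2.99, 2.99 and 2.98. Solyc12g056930 averaged 8.67 RPKM in TF18-Pink and 2.21 in rin-Pink, and Solyc03g112620 averaged 10.4 and 2.81. The limiting ratios thus run on across the threshold without a gap. Leaving out each of the 18 libraries in turn gave 57 to 81 genes, and 36 of the 66 were kept every time.

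The rule set no ratio between the ages or between rin and the wild type, but it used the means of all 6 groups. It held rin and the wild type to at most the TF18 level divided by 3 and TF18-Pink to at least 5 RPKM, and 8 of the 66 genes passed the filter through TF18 alone. The counts below are therefore not independent of the choice of the genes, and the shares over all genes tested stand beside them as a description. Changes were tested with limma on log2(RPKM + 1) over all 20658 genes, and the words rose and fell are kept for genes with an adjusted p below 0.05 whose log2 change was 1 or more in size. In the wild type 34 of the 66 genes fell and 1 rose between 35 and 45 DAP. That is 51.5% falling, where 34.2% of all genes tested fell and 7.54% rose. The median log2 fold change was -1.18 over the 66 genes and -0.58 over all genes tested. With TMM-type scaling these medians were -0.85 and -0.13, and with quantile normalization -0.33 and 0.08. Under TMM-type scaling 29 of the 66 fell and 1 rose, against 23.7% falling and 18.2% rising among all genes. Under quantile normalization 20 fell and 3 rose, against 15.5% falling and 14.9% rising among all genes. All 3 AC-Pink libraries lay below all 3 AC-Green libraries in 43 of the 66 genes, where 49.7% of all genes tested did.

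Solyc07g054860 fell to 0.632, 17.7 and 1.92 RPKM in AC-Pink, against 178, 146 and 173 in AC-Green, a log2 change of -5.22 with an SE of 0.65 (limma adjusted p = 9.5e-06). Solyc12g040640 fell to 0.0632, 0.115 and 0 RPKM in AC-Pink, against 31.8, 33.1 and 20.8 in AC-Green (log2 change -4.78 ± 0.47, SE, limma adjusted p = 9.6e-07). Solyc11g010810 fell by 3.97 on the log2 scale, to values described above (limma adjusted p = 1.8e-06). The wild-type libraries of the 2 ages did not overlap in any of these 3 genes. Solyc07g008430 had 0.469, 0 and 0.621 RPKM in AC-Pink and 21.8, 38.8 and 6.397 in AC-Green, a log2 change of -3.82 with an SE of 0.67 (limma adjusted p = 0.00019). Solyc06g076850 had 5.78, 5.47 and 1.99 RPKM in AC-Pink and 44, 65.9 and 60.6 in AC-Green, a log2 change of -3.49 with an SE of 0.35 (limma adjusted p = 1.1e-06). The single gene that rose was Solyc06g005470, at 31.5, 45.2 and 42.3 RPKM in AC-Pink and 11.97, 10.8 and 22.5 in AC-Green, a log2 change of 1.39 with an SE of 0.53 (limma adjusted p = 0.033). Its call was lost without AC-Green replicate 1 or 2 or AC-Pink replicate 2 or 3, with adjusted p from 0.074 to 0.1, and with 5 RPKM added (adjusted p = 0.058). Of the 21 genes given by range, Solyc03g043770, Solyc02g089250 and Solyc11g066270 changed most in the wild type, with log2 changes of -2.78, -2.73 and -2.53 (limma adjusted p = 0.00012, 0.0037 and 2.6e-05).

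In rin 14 of the 66 genes fell and 0 rose over the same interval, 21.2% against 8.84% falling and 7.49% rising among all genes tested. The median log2 fold change was -0.63 over the 66 genes and 0.04 over all. All 3 rin-Pink libraries lay below all 3 rin-Green libraries in 25 of the 66 genes, against 19.2% of all. TMM-type scaling left 14 falls and quantile normalization 13. Of the 14 genes, 12 also fell in the wild type, which is 85.7% of the rin list and 35.3% of the wild-type list. The same overlap over all genes tested was not computed, so it is not read as particular to the 66. Solyc12g040640 fell to 1.54, 0.512 and 1.57 RPKM in rin-Pink, against 40.4, 32.3 and 48.3 in rin-Green (log2 change -4.25 ± 0.47, SE, limma adjusted p = 2.9e-05). Solyc06g076850 fell to 5.75, 3.91 and 3.38 RPKM in rin-Pink, against 94.5, 70.6 and 42.2 in rin-Green (log2 change -3.66 ± 0.35, SE, limma adjusted p = 9.7e-06). The 2 ages did not overlap in rin in either gene. Solyc07g054860 (log2 change -3.23 ± 0.65, SE, limma adjusted p = 0.0021), Solyc11g010810 (log2 change -2.88 ± 0.42, SE, limma adjusted p = 0.0002) and Solyc02g082900 (log2 change -2.57 ± 0.60, SE, limma adjusted p = 0.0053) followed in size. For Solyc02g082900 the rin values were 11.2, 26.4 and 18.3 RPKM at 45 DAP and 199.7, 104 and 63.2 at 35 DAP.

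In TF18 itself 1 gene fell and 0 rose between the ages, where 0.145% of all genes tested fell and 0.566% rose. An unadjusted p under 0.05 was reached by 15 of the 66 (22.7%, against 9.72% of all genes tested), and all 3 TF18-Pink libraries lay below all 3 TF18-Green libraries in 10, against 4.31% of all genes tested. Library weights gave 11 genes, all lower, where 211 of the 20658 were lower and 646 higher, leaving out TF18-Green replicate 2 gave 0, and leaving out TF18-Green replicate 3 gave 2. The gene was Solyc12g040640, with 33.9, 6.13 and 18 RPKM in TF18-Pink and 142, 185 and 64.1 in TF18-Green, a log2 change of -2.84 with an SE of 0.47 (limma adjusted p = 0.0076). It fell in all 3 genotypes, but its call in TF18 was lost without TF18-Green replicate 2 (adjusted p = 0.057) and with only the TF18 libraries in the fit (adjusted p = 0.17). The median log2 fold change in TF18 was -0.13 over the 66 genes and 0.08 over all, with 30 genes above 0 and 36 below. Among the 34 genes that fell in the wild type, Solyc06g076850 had 317, 219 and 159 RPKM in TF18-Pink and 198, 259 and 277 in TF18-Green, without a call in TF18. Others of the 34 were lower in TF18-Pink without overlap but narrowly missed the call. They include Solyc08g082120 (log2 change -2.3, limma adjusted p = 0.052) and Solyc10g080540 (log2 change -1.48, limma adjusted p = 0.063). Whether the change in TF18 differs from that in the wild type was not tested, since that difference is built from the contrasts that chose the genes.

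**Figure D4:**
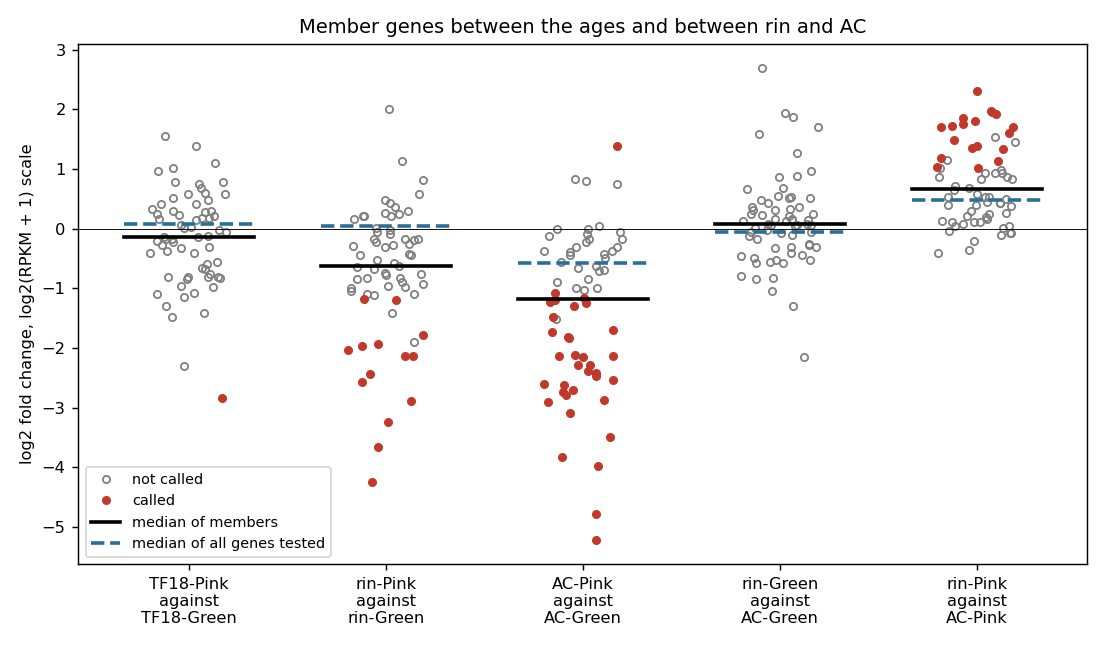
Log2 fold changes of the 66 genes, on the log2(RPKM + 1) scale, in the 2 comparisons of rin with the wild type and the 3 comparisons of the ages, for which the rule set no ratio although it used the means of every group, with called genes in red, genes that were not called as open circles, the median of the 66 genes as a black line and the median of all genes tested as a dashed blue line. The red points lie almost all below 0 in the wild type (34 lower, 1 higher) and in rin (14 lower), and above 0 where rin-Pink is set against AC-Pink (19 higher).

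No difference between rin and the wild type was called in these genes at 35 DAP. By limma 0 of the 66 genes were called between rin-Green and AC-Green, where 0.0581% of all genes tested were higher and 0.0339% lower, and 4 of the 66 (6.06%) had an unadjusted p under 0.05, against 2.55% of all genes. The median log2 fold change was 0.08, against -0.06 for all genes. Library weights, and leaving out rin-Green replicate 2, each gave 1 gene.

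At 45 DAP 19 of the 66 genes were higher and 0 lower in rin-Pink than in AC-Pink. The 28.8% is near the background of 25.9% higher among all genes tested, of which 3.42% were lower, so the count is no result about these genes in particular. The largest differences were in Solyc02g065570, Solyc11g011920, Solyc08g068690, Solyc05g006830 and Solyc09g011670. Solyc02g065570 had a log2 change of 2.30 with an SE of 0.37 (limma adjusted p = 0.0002) at the values given above, which rest on 48 reads in rin-Pink and 4 in AC-Pink. Solyc11g011920 was at 51.4, 73.6 and 78.2 RPKM in rin-Pink and 19.6, 9.56 and 22.6 in AC-Pink (log2 change 1.97 ± 0.30, SE, limma adjusted p = 0.00011), without overlap. Solyc08g068690 followed with 1.96 with an SE of 0.37 (limma adjusted p = 0.00067), also without overlap. Solyc05g006830 had 25.96, 12.9 and 35.8 RPKM in rin-Pink and 9.15, 1.28 and 9.94 in AC-Pink, a log2 change of 1.92 with an SE of 0.63 (limma adjusted p = 0.022). This call was lost without rin-Pink replicate 1 or 3 or AC-Pink replicate 2 (adjusted p from 0.063 to 0.13) and under TMM-type scaling, quantile normalization, library weights and the compared groups alone (adjusted p from 0.064 to 0.29). Solyc09g011670 had 17.3, 22.5 and 38.9 RPKM in rin-Pink and 10.2, 2.46 and 8.45 in AC-Pink (log2 change 1.85 ± 0.50, SE, limma adjusted p = 0.007), with an adjusted p of 0.13 under quantile normalization. Counts moved with the scaling to 11 of 66 genes higher under TMM-type scaling, against 14.1% of all genes, and to 4 under quantile normalization, against 8.03%, and to 12 without rin-Pink replicate 3. The median log2 change of the 66 genes was 0.67, and 0.49 for all genes. With TMM-type scaling these were 0.46 and 0.08, and with quantile normalization 0.19 and -0.04.

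The wild-type and rin intervals were also compared directly. The change from 35 to 45 DAP was called higher in rin than in the wild type for 8 of the 66 genes and lower for 1, where 23.2% and 2.97% of all genes tested were. The median difference was 0.72 over the 66 genes and 0.57 over all. With 0.1 RPKM added instead of 1, 19 of the 66 genes were higher and 1 lower, against 5535 higher and 603 lower of the 20658, and with quantile normalization 1 gene was called in each direction. The share called higher was 12.1% of the 66 genes in the main setting. It was 7.58% under TMM-type scaling, against 10.6% of all genes, and 1.52% under quantile normalization, against 5.66%. In these settings the share was thus below that of all genes, and with 0.1 RPKM added it was only slightly above. The median differences were 0.41 and 0.08 under TMM-type scaling, and -0.02 for both under quantile normalization.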

How the data were processed

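RNA sequencing was done on 18 libraries of tomato fruit. The authors deposited a table of RPKM values for all libraries. CASAVA 1.8.1 and Bowtie2 appear, without a stated role, in the submitters' processing notes. The build is not given in the sources used here, nor is the annotation or the counting program. Library titles gave groups and replicates, and 0 columns had no sample. The 66 genes, the lists and the tests were chosen with earlier results of these data known. Whole reads, coding lengths (multiples of 3 bases) and read totals were solved from the steps of the RPKM values for all 24654 genes with at least 6 values above 0 (tolerance 0.02 reads). This and the limma step were tested on simulated data.

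Tests used limma 3.58.1 in R 4.3.3 on log2(RPKM + 1), with 6 group means in 1 model, a variance trend and Benjamini-Hochberg adjustment over the 20658 genes reaching 1 RPKM in 3 or more libraries. This scale understates changes of low genes. Named genes are the 8 with the largest limiting ratio, the 8 highest in TF18-Pink, up to 5 called per comparison and direction, 3 on either side of the threshold, the 5 with the largest and 5 with the smallest share in 1 TF18 library, and identifier neighbours. Genes named outside these (among them Solyc03g097870, Solyc06g066830, Solyc03g121420, Solyc07g062490 and the 21 given by range) were chosen after their values were seen. Planned gene lists and markers could not be matched to identifiers, and a planned test of the summed share is not given, as the genes were chosen on these libraries. Alternatives changed the pseudocount, filter, scaling, library weights, replicate block, groups in the fit, or left out 1 library. TMM-type scaling was an unweighted trimmed mean on RPKM. Python 3.11.15, numpy 2.4.6, pandas 2.3.3 and matplotlib 3.10.9 did the rest.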

Additional observations from a re-analysis of the deposited data

Results flagged for a closer look

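The change between the ages differed between rin and the wild type in the genes below, by limma's test of the difference between the changes over all 20658 genes. In Solyc08g082120 the log2 change in rin was higher by 2.54 with an SE of 0.72 (limma adjusted p = 0.016). Its values were 6.47, 5.75 and 16.98 RPKM in rin-Pink and 7.74, 14.4 and 8.57 in rin-Green, and 3.83, 2.55 and 0.507 in AC-Pink and 15, 43.7 and 9.13 in AC-Green. The wild type thus fell while the rin libraries overlapped between the ages. For Solyc02g065570 the difference was 2.24 with an SE of 0.53 (limma adjusted p = 0.0058), for Solyc12g056930 2.18 with an SE of 0.63 (limma adjusted p = 0.017), for Solyc11g011920 1.96 with an SE of 0.42 (limma adjusted p = 0.0036) and for Solyc10g079410 1.83 with an SE of 0.36 (limma adjusted p = 0.0021). In Solyc10g079410 the rin-Pink libraries had 5.08, 2.64 and 2.36 RPKM and the rin-Green libraries 6.01, 8.16 and 4.66, against 0.154, 0.211 and 0.358 in AC-Pink and 5.81, 6.02 and 7.78 in AC-Green. By limma the other 4 genes also fell in the wild type and were not called in rin. Solyc06g005470 alone differed in the other direction, by -2.17 with an SE of 0.75 (limma adjusted p = 0.039). Its rin-Green replicate 1 stood at 296 RPKM, and without that library the log2 difference was -1.38 (limma adjusted p = 0.069). The call was also lost without any other single rin or wild-type library except rin-Green replicates 2 and 3, AC-Green replicate 3 and AC-Pink replicate 1, with adjusted p from 0.056 to 0.084. Adding 5 RPKM, dropping the filter on low values and fitting only the compared groups each lost it too. In total 11 of 21 alternatives lost this call. For 4 of the other 5 genes, all but Solyc11g011920, the call was lost under quantile normalization (adjusted p from 0.065 to 0.19). In total Solyc08g082120, Solyc12g056930 and Solyc10g079410 each lost it in 2 of 21 alternatives, and Solyc02g065570 in 1.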

How the results depend on the processing

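The number of genes chosen was 259 with a fold of 2, 23 with 5 and 30 with 5 RPKM added to the means. Under TMM-type scaling 47 genes met the rule, all among the 66, and group medians gave 76, with 54 shared. Without single libraries it ranged from 57 to 81. For TF18-Pink against TF18-Green, where 1 gene was called, 5 RPKM gave 3, quantile normalization and the compared groups alone 2 each, library weights 11, and leaving out single libraries 0 to 2. For rin-Pink against rin-Green (14 calls) 5 RPKM gave 8, and single libraries 10 to 15. For AC-Pink against AC-Green (35 calls) 5 RPKM and quantile normalization gave 23 each, and single libraries 30 to 33. Between rin-Green and AC-Green (0 calls) library weights gave 1, and single libraries 0 to 1. For rin-Pink against AC-Pink (19 calls) 5 RPKM gave 6, TMM-type scaling 11, quantile normalization 4, and single libraries 12 to 16. For the difference of the changes in rin and the wild type (9 calls) 0.1 RPKM gave 20, 5 RPKM 4, quantile normalization 2, and single libraries 7 to 11. The cause of these shifts was not tested. Same-numbered libraries did not deviate together in every pair of any comparison (correlations from -0.24 to 0.317), so the numbers are not treated as pairs. With a replicate block the 6 counts were 1, 12, 34, 0, 18 and 9 in the order above. Among the 23 named tests, 348 of 381 alternatives kept the call, 33 lost it and 0 reversed direction. The shallowest 2 libraries were AC-Pink replicates 2 and 3 (5740900 and 7888620 reads), which limits what can be said of genes near 0 there.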
